A study of Mus musculus with 12 samples.

Results

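The cytokines leukemia inhibitory factor (Lif) and interleukin 6 (Il6), the receptor chains Lifr, Osmr, Il6ra and Il6st, the transcription factor Stat3 and its feedback inhibitor Socs3 were followed in mouse mammary gland. These 8 genes of 18193 named on the array were represented by 22 of 45037 probe sets, every probe set annotated to 1 of these symbols and no other. Of the 22 probe sets, 15, from 7 genes, were bright enough to be tested. Il6 had no tested probe set.

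The 4 groups were progesterone receptor null glands after 24 h, progesterone receptor null glands after 8 h, wild type glands after 24 h and wild type glands after 8 h of progesterone, with 3 arrays each. All came from ovariectomized BALB/c females aged 10 weeks, and each array carried the pooled RNA of 3 mice. Every animal in every group was injected subcutaneously with 17β-estradiol (100 ng) for 24 h and then with 17β-estradiol (100 ng) plus progesterone (2.5 ug) for the stated time. No group without progesterone was analysed here, and estradiol treatment was longer in the 24 h groups, so a difference between the times cannot be told apart from longer estradiol treatment. The labels do not describe the null allele. RNA came from whole glands, in which fewer cells of a type and less RNA per cell cannot be told apart.

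LIF, IL6 and oncostatin M are cytokines that signal through the shared receptor chain gp130, the product of Il6st. LIF joins gp130 to the LIF receptor, oncostatin M joins it to the oncostatin M receptor, and IL6 first binds its own receptor, the product of Il6ra. The receptors activate JAK kinases, which phosphorylate STAT3, and STAT3 induces Socs3, whose product blocks further signalling at gp130. In the mouse mammary gland this pathway is known best from involution after weaning, when LIF activates STAT3 in the epithelium. STAT3 is switched on by phosphorylation of the protein, which an RNA array does not measure.

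The gene starts of Lif, Stat3 and Socs3, which stand for the ligand, the transcription factor and the feedback inhibitor, are shown because both Lif and Stat3 differed between the times. Each sequence is the 250 bases before the start in RefSeq for the build GRCm38.p6, written on the strand of the gene, and all 8 genes had such a window (9 windows, since Lifr had 2). Capitals mark matches to TTCNNNGAA, the letters STAT proteins bind, or to TGTTCT, a core of the sequence bound by the progesterone receptor and its relatives, on either strand. The windows are chr11:4257318-4257567 on the plus strand for Lif, chr11:100939541-100939790 on the minus strand for Stat3 and chr11:117969367-117969616 on the minus strand for Socs3.
Lif: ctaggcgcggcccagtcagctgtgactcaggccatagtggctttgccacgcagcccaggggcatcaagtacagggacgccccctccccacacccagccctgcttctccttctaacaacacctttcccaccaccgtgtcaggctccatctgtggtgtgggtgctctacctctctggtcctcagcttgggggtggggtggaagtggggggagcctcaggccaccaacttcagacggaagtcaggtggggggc
Stat3: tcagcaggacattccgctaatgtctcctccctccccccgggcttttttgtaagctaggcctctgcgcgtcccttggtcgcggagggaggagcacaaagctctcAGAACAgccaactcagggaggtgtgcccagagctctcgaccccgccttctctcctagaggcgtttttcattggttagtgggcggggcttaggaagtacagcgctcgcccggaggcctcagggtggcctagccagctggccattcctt
Socs3: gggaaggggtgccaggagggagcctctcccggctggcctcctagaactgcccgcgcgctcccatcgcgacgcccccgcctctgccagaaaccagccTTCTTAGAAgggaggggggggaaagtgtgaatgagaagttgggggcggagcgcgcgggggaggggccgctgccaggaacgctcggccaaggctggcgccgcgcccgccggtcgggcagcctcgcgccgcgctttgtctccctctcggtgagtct
The STAT letters were found in 1 of the 9 windows, that of Socs3, as TTCTTAGAA at bases 97 to 105 of the window. They were in 7.02% of 32851 mouse windows of this length. The TGTTCT core was found in 1 of the 9, that of Stat3, as its reverse complement AGAACA at bases 104 to 109, against 16.1% of all windows. Neither was in the Lif window. These matches describe letters and not bound sites.

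Values are the deposited log2 signals, and differences are null minus wild type or 24 h minus 8 h on that scale. A probe set was called when its adjusted p in limma, over 23709 tested probe sets, was below 0.05. The array medians were between 5.84 and 5.91, and arrays within a group correlated at 0.965 to 0.993 over all probe sets. Pgr itself checked the genotype labels only in part. Its probe set 1439527_at was lower in null than in wild type glands at 8 h (-1.06, adjusted p = 0.012) and differed by -0.36 at 24 h (adjusted p = 0.45), while 1455772_at was higher in null glands at both times (1.97 at 8 h and 2.10 at 24 h, adjusted p = 6.0e-05 and 9.0e-05), and neither probe position relative to the allele is known here. Of 9 skeletal muscle probe sets none was called by limma in either genotype comparison, yet their mean level ranged from 8.11 to 9.80 in null and 9.46 to 11.8 in wild type glands at 24 h. At 8 h it ranged from 6.19 to 9.96 in null and 9.58 to 10.8 in wild type glands. Mean levels of luminal epithelial and adipocyte markers lay above the array median on all 12 arrays. Some marker probe sets were called, in some lists against the direction of the others. At 8 h, 5 of 15 luminal probe sets, from 3 of 9 genes, were called higher in null glands, beside 1.54% of all. Of the 15 differences 8 were negative (median -0.03). Of 10 brown adipocyte probe sets 2 were called higher there (median 0.09). Of 6 endothelial probe sets 1, Vwf, was called lower (median 0.19), and of 3 neutrophil probe sets 1 was called lower (median -0.14). The share of all tested probe sets called lower at 8 h was 1.54%. At 24 h, 6 of 15 luminal probe sets (median -0.26) and 1 of 10 basal ones (median -0.75) were called lower in null glands. The share of all tested probe sets called lower at 24 h was 0.873%. The luminal 6 belonged to 3 of 9 genes, with all 4 Cldn3 probe sets among them. Of the 15 luminal differences 9 were negative, while Krt8 was higher in null glands on all 3 of its probe sets. Over time the 2 basal probe sets called lower in each genotype were both of Oxtr. The basal median was -1.02 in null glands and 0.27 in wild type glands, where the other 8 differences were positive. In null glands 3 of 15 luminal (median -0.15) and 2 of 6 endothelial probe sets (median -0.26) were also called lower. Of all tested probe sets 3.59% were called lower there. In wild type glands 5 of 15 luminal probe sets, from 3 genes, were called higher and 1 lower (median 0.41). The shares of all tested probe sets were 1.53% and 3.69%. Lists with no call over time also moved. Of 13 fibroblast differences over time 13 were negative in null glands (median -0.26) and 11 in wild type glands (median -0.27). Of 6 T and B lymphocyte differences none was negative (median 1.18 in null and 0.96 in wild type glands). The mean lymphocyte level varied from 5.16 to 9.20 over the pools. The part of these cell markers in the results below was not tested.

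**Figure D1:**
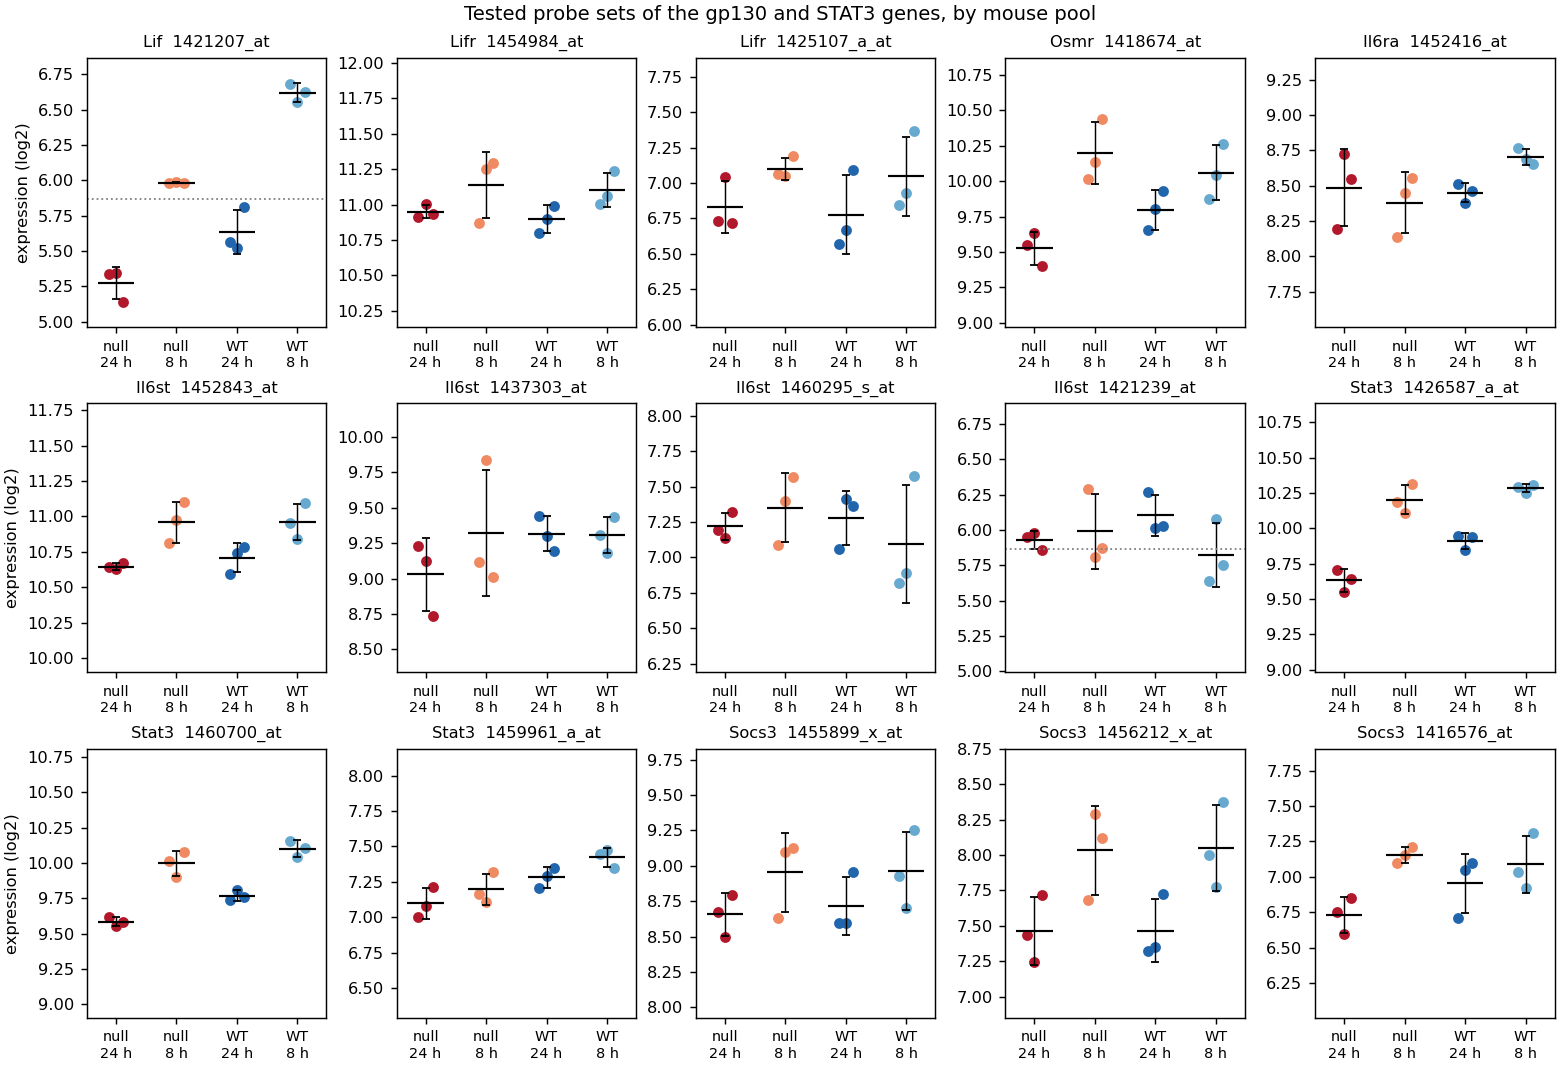
Deposited log2 signal of the 15 tested member probe sets in each of the 12 pools. There is 1 panel per probe set and 1 colour per group, with the 4 groups along the horizontal axis. Points are pools, and bars are group means with SD. Lif probe set 1421207_at lay between 6.55 and 6.68 in wild type glands at 8 h and was lower in every other group. Il6 had no tested probe set and is not shown.

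Lif was the member that differed between the genotypes. After 8 h its probe set 1421207_at was 1.56-fold lower in null than in wild type glands, and it was lower at 24 h than at 8 h in both genotypes. The 3 null pools read 5.34, 5.35 and 5.14 at 24 h and 5.98, 5.99 and 5.98 at 8 h. The 3 wild type pools read 5.56, 5.53 and 5.81 at 24 h and 6.68, 6.55 and 6.63 at 8 h. No groups overlapped, and the order was wild type 8 h, null 8 h, wild type 24 h, null 24 h. The means were 5.28 ± 0.12 in null 24 h glands, 5.98 ± 0.004 in null 8 h glands, 5.63 ± 0.16 in wild type 24 h glands and 6.62 ± 0.07 in wild type 8 h glands (SD, n = 3 each).

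At 8 h the difference for Lif was -0.64 (SE 0.11, 95% interval -0.88 to -0.40, adjusted p = 0.0083 in limma). It was the 1 member probe set called of 15, beside 3.07% of all tested probe sets, and its size ranked 443 among the 729 called. Without pool 1 of the wild type 8 h glands the value was -0.61 with an adjusted p of 0.052, so the call was lost. In that fit 320 of all tested probe sets were called, in place of 729. At 24 h Lif differed by -0.36 (interval -0.60 to -0.12, unadjusted p = 0.0067), and the adjusted p was 0.17. The change of the genotype difference between the times was 0.28, with an adjusted p of 0.99, so the 2 times were not shown to differ.

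Over time Lif fell 1.63-fold in null glands (-0.71, interval -0.95 to -0.47, adjusted p = 0.0066) and 1.98-fold in wild type glands (-0.99, interval -1.22 to -0.75, adjusted p = 0.0012). Both calls were kept whichever pool was left out. All 6 arrays at 8 h and none at 24 h put this probe set above the array median, so it passed the filter on low values through the 8 h arrays alone. With no filter the adjusted p was 0.0065 in null and 0.00099 in wild type glands. The other Lif probe set, 1450160_at, read 3.55 to 4.09 and lay below the lower quartile of every array.

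Il6, the ligand that gives the family its name, had 1 probe set, 1450297_at. Its 12 values ran from 3.18 to 3.70, all below the lower quartile of their arrays, which was 4.16 to 4.30. At this signal no level or difference of Il6 could be read.

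Among the receptors Osmr, the oncostatin M receptor chain, was lower at 24 h than at 8 h in null glands. Its probe set 1418674_at read 9.55, 9.63 and 9.40 in null glands at 24 h, against 10.02, 10.14 and 10.44 in null glands at 8 h. Wild type glands gave 9.65, 9.80 and 9.93 at 24 h, against 9.88, 10.05 and 10.26 at 8 h. The null groups were apart and the wild type groups overlapped. Osmr fell 1.59-fold in null glands (-0.67, interval -0.95 to -0.39, adjusted p = 0.017). The wild type difference was -0.26 with an adjusted p of 0.26. The test of the difference between the genotypes gave -0.41 (interval -0.80 to -0.01, unadjusted p = 0.045, adjusted p = 0.87), so the fall was not shown to be particular to null glands. The null call was lost without pool 3 of the null 24 h glands (adjusted p = 0.056) and without pool 3 of the null 8 h glands (adjusted p = 0.072).

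Between the genotypes Osmr differed by -0.27 at 24 h, where the pools did not overlap (adjusted p = 0.39), and by 0.14 at 8 h (adjusted p = 0.68). The untested Osmr probe sets 1418675_at and 1459217_at read 4.46 to 5.50 and 3.34 to 3.78.

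Il6st, the shared signalling chain, read 10.64, 10.63 and 10.67 on its brightest probe set, 1452843_at, in null glands at 24 h and 10.81, 10.97 and 11.10 in null glands at 8 h. In wild type glands it read 10.59, 10.74 and 10.79 at 24 h and 10.96, 10.84 and 11.09 at 8 h. The 24 h pools lay below the 8 h pools in both genotypes. The differences of -0.31 in null and -0.26 in wild type glands had adjusted p of 0.071 and 0.13. Between the genotypes Il6st differed by -0.06 at 24 h and by -0.003 at 8 h on this probe set, with overlapping pools. The other Il6st probe sets, 1437303_at, 1460295_s_at and 1421239_at, spanned 8.74 to 9.84, 6.82 to 7.58 and 5.64 to 6.29. Over the 12 arrays the tested Il6st probe sets correlated with each other at -0.56 to 0.38, so they did not follow 1 pattern.

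Il6ra, which makes a cell responsive to IL6, read 8.14, 8.45 and 8.56 in null glands at 8 h on 1452416_at. Wild type glands at 8 h read 8.76, 8.69 and 8.65, all above the null pools. The difference was -0.32 (interval -0.62 to -0.03, unadjusted p = 0.035), with an adjusted p of 0.27. At 24 h the null pools read 8.19, 8.72 and 8.55 and surrounded the wild type pools, at 8.51, 8.38 and 8.46. Over time Il6ra differed by 0.11 in null and by -0.25 in wild type glands, and neither was called. The other Il6ra probe set, 1422270_a_at, was not tested and read 5.26 to 5.68.

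Lifr, the chain that LIF joins to gp130, read 10.80 to 11.30 over all 12 pools on 1454984_at. Its second tested probe set, 1425107_a_at, read 6.57 to 7.37, and the untested 1450207_at read 5.28 to 5.92. No Lifr probe set was called in any of the 5 comparisons by limma, and none had an unadjusted p below 0.05. RefSeq places Lifr next to Osmr on chromosome 15, and Osm, the oncostatin M gene, next to Lif on chromosome 11.

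**Figure D2:**
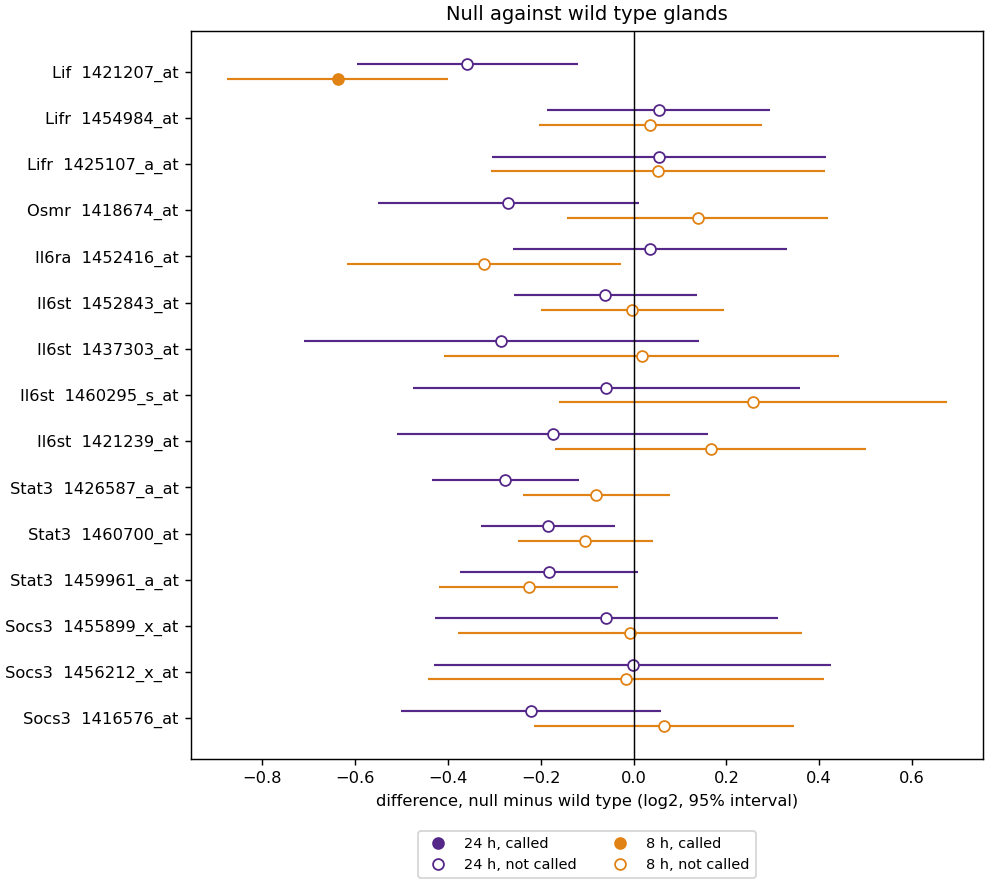
Null minus wild type difference (log2) with its 95% interval for each tested member probe set, after 24 h and after 8 h; filled points were called. Lif at 8 h, at -0.64, was the 1 filled point.

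Stat3 was lower at 24 h than at 8 h in both genotypes on its brightest probe sets. On 1426587_a_at null glands read 9.71, 9.55 and 9.64 at 24 h, against 10.19, 10.11 and 10.32 at 8 h. Wild type glands read 9.94, 9.85 and 9.94 at 24 h, against 10.29, 10.25 and 10.30 at 8 h. All 24 h pools lay below all 8 h pools, and the 8 h pools of the genotypes overlapped. This probe set fell 1.48-fold in null glands (-0.57, adjusted p = 0.0024) and 1.29-fold in wild type glands (-0.37, adjusted p = 0.017).

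The second Stat3 probe set, 1460700_at, correlated with the first at 0.976 over the 12 arrays. It read 9.62, 9.56 and 9.58 in null glands at 24 h and 10.01, 9.90 and 10.08 in null glands at 8 h, a 1.33-fold fall (-0.41, adjusted p = 0.0081). In wild type glands it read 9.74, 9.81 and 9.76 at 24 h and 10.16, 10.04 and 10.11 at 8 h, a 1.26-fold fall (-0.33, adjusted p = 0.018). The 24 h and 8 h pools were apart in both genotypes on this probe set too. Without pool 1 of the wild type 8 h glands the wild type calls were lost for both probe sets (adjusted p = 0.077 for 1426587_a_at and 0.092 for 1460700_at), and 1460700_at was also lost without pool 3 of the wild type 24 h glands (0.051). With only the compared arrays in the fit, the 1460700_at call was lost in null (0.0506) and in wild type glands (0.069).

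Between the genotypes at 24 h the null pools lay below the wild type pools on both of these Stat3 probe sets. The difference was -0.28 on 1426587_a_at (interval -0.44 to -0.12, unadjusted p = 0.0026, adjusted p = 0.11) and -0.18 on 1460700_at (adjusted p = 0.25). At 8 h the difference on 1426587_a_at was -0.08 (adjusted p = 0.67). A dimmer Stat3 probe set, 1459961_a_at, read 7.16, 7.11 and 7.32 in null glands and 7.45, 7.47 and 7.35 in wild type glands at 8 h. Its pools did not overlap, and the difference of -0.23 had an adjusted p of 0.23. Over time it differed by -0.10 in null and -0.14 in wild type glands and was not called, so the Stat3 probe sets did not all carry the call between the times. The fourth Stat3 probe set, 1424272_at, was not tested and read 4.80 to 5.41.

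Socs3, the STAT3 target whose promoter window held the STAT letters, was not called in any comparison by limma. On 1456212_x_at null glands read 7.43, 7.24 and 7.72 at 24 h and 7.69, 8.29 and 8.12 at 8 h, with an overlap. Wild type glands read 7.33, 7.35 and 7.72 at 24 h and 8.00, 7.77 and 8.38 at 8 h, with none. The differences over time, -0.57 in null and -0.58 in wild type glands, were about as large as those of called members, but their adjusted p were 0.12 and 0.11. On 1416576_at null glands read 6.75, 6.60 and 6.85 at 24 h and 7.10, 7.16 and 7.21 at 8 h, apart from each other (-0.42, adjusted p = 0.086). The wild type difference on that probe set was -0.13. Between the genotypes the pools overlapped on all 3 Socs3 probe sets at both times, with differences from -0.22 to 0.07.

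The third Socs3 probe set, 1455899_x_at, was the brightest, at 8.50 to 9.25. Over time it differed by -0.30 in null glands (adjusted p = 0.35) and by -0.24 in wild type glands (adjusted p = 0.44), less than the other 2 probe sets in null glands, and its pools overlapped in both genotypes. By the maker's naming, the ending x_at marks probes that may also bind other transcripts. The pool with the lowest macrophage marker level, null 8 h pool 1 (9.75), had the lowest Socs3 of its group on all 3 probe sets. The pool with the highest macrophage level, wild type 8 h pool 3 (10.8), had the highest of all 12 pools on all 3. Null glands at 24 h ran the other way, since pool 3, lowest there in macrophage markers (10.1), had the highest Socs3 and pool 2, highest in them (10.3), had the lowest, on all 3 probe sets. The part of macrophage RNA in Socs3 was not tested.

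**Figure D3:**
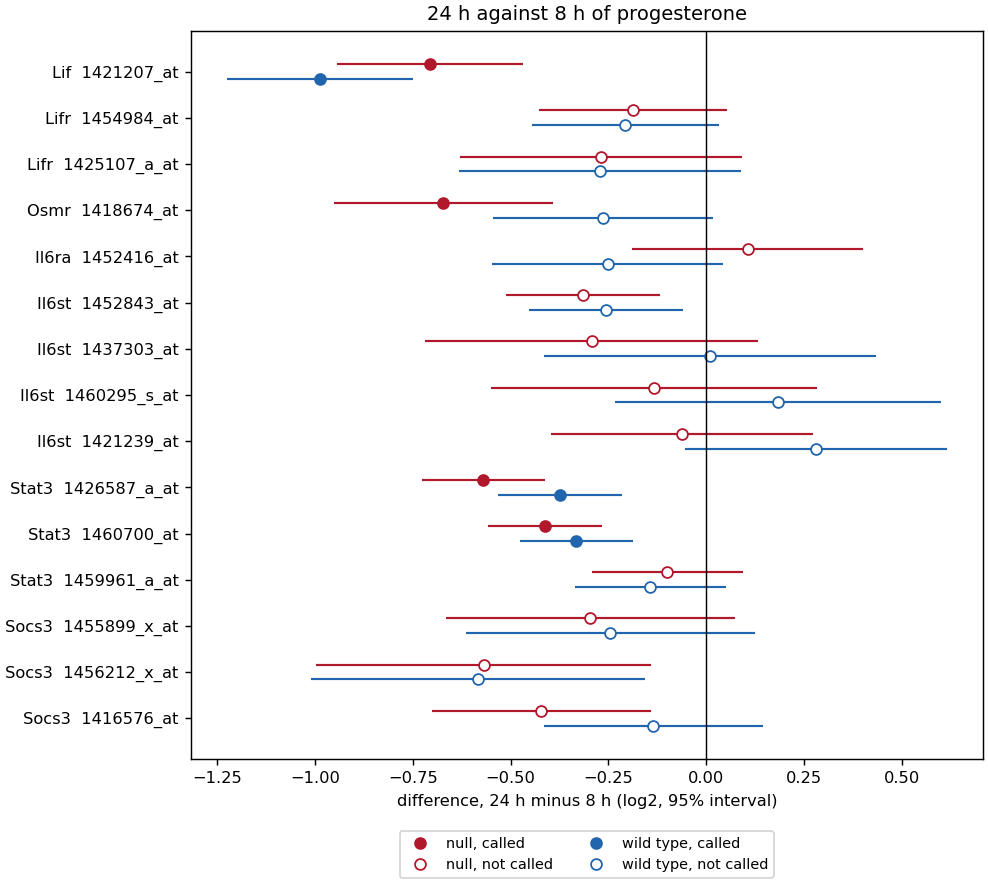
24 h minus 8 h difference (log2) with its 95% interval for each tested member probe set, in null and in wild type glands; filled points were called. Lif and the 2 brightest Stat3 probe sets were filled in both genotypes, and Osmr in null glands.

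Counted over the 15 tested probe sets, none was called between the genotypes at 24 h by limma, beside 1.11% of all tested probe sets, and 3 had an unadjusted p below 0.05. None was called for a change of the genotype difference between the times, beside 0.143% of all, and 1 had an unadjusted p below 0.05. Shares of all tested probe sets at the unadjusted threshold were not counted. Over time 4 were called in null glands, all lower, and they belonged to 3 of the 7 tested genes, since Stat3 had 2. Of all tested probe sets 4.4% were called there in either direction and 3.59% were called lower. In wild type glands 3 were called, all lower and from 2 genes, beside 5.22% in either direction and 3.69% called lower. The members were chosen with earlier results of these data known, so these counts are a description. No member was called higher at 24 h in either genotype, where 0.814% and 1.53% of all tested probe sets were. The median difference over time was -0.30 for the members and -0.03 for all tested probe sets in null glands. In wild type glands the medians were -0.25 and -0.02. Fibroblast markers had medians over time of -0.26 in null and -0.27 in wild type glands, and their part in the member differences was not tested. Between the genotypes the member medians were -0.17 at 24 h and -0.003 at 8 h, and those of all tested probe sets were -0.02 at both times. The 2 time comparisons share no arrays with each other, but each shares arrays with the genotype comparisons.

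The rest of the pathway was read from lists of its ligands, receptors, kinases, inhibitors and target genes. The other ligands of the gp130 family had 5 tested probe sets from 3 genes, the other receptors 3 from 3 genes, and the other inhibitors and phosphatases 15 from 8 genes. None of these was called in any of the 5 comparisons by limma, and at most 1 probe set per list and comparison had an unadjusted p below 0.05. Osm and Il11 had no tested probe set.

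Of 7 kinase probe sets 1 was called over time in each genotype, beside 4.4% of all tested probe sets in null and 5.22% in wild type glands, and the list medians were -0.04 and -0.08. It was 1 of 3 tested probe sets of Jak1, the kinase most used by gp130. On 1433804_at Jak1 read 7.67, 7.61 and 7.70 in null glands at 24 h and 8.38, 8.42 and 8.23 in null glands at 8 h. This probe set fell 1.60-fold there (-0.68, adjusted p = 0.024), with the pools apart. In wild type glands it read 8.34, 7.72 and 8.16 at 24 h and 8.87, 8.58 and 8.56 at 8 h, a 1.51-fold fall (-0.60, adjusted p = 0.035), also apart. Leaving out 1 pool removed the call in 5 of 6 fits in each genotype. The other Jak1 probe sets were not called, at 0.10 on 1433803_at and -0.23 on the brighter 1433805_at in null glands and at -0.13 and -0.29 in wild type glands, so Jak1 has no single pattern over time.

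Of the genes known to respond to STAT3, 26 had 46 tested probe sets. This list was chosen with earlier results of these data known, so its counts are a description. In null glands 14 of the 46 (30.4%) were called lower at 24 h than at 8 h and 1 higher, against 3.59% and 0.814% of all tested. The 14 belonged to 8 of the 26 genes, since Pik3r1, Il4ra, Cebpb and Hif1a had several each. In wild type glands 11 of 46 (23.9%) were called lower and none higher, against 3.69% and 1.53%, and the 11 belonged to 7 genes. Il4ra, the interleukin 4 receptor, fell by 1.11 in null and by 1.36 in wild type glands on 1421034_a_at. Pik3r1, a regulatory subunit of PI3 kinase, fell by 0.91 and by 0.93 on 1425514_at, and Cebpb, a transcription factor of mammary development, fell by 0.69 and by 0.62 on 1418901_at. These 3 calls held in both genotypes whichever pool was left out.

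A second Il4ra probe set, 1423996_a_at, fell by 0.84 in null and by 0.81 in wild type glands, with adjusted p of 0.070 and 0.075 when the pool number was a block. Hif1a, a transcription factor of the response to low oxygen, fell by 0.81 in null glands on 1427418_a_at. On 1416035_at Hif1a was called in both genotypes, falling by 0.54 in null and by 0.55 in wild type glands. Il1r1, the interleukin 1 receptor, fell by 0.68 in null and by 0.52 in wild type glands, both called. A second Pik3r1 probe set, 1451737_at, fell by 0.54 in null and by 0.71 in wild type glands, both called. Bcl6, a transcriptional repressor, fell by 0.73 in wild type glands. The 1 probe set that rose, 1422313_a_at in null glands (0.62), belonged to Igfbp5, an insulin-like growth factor binding protein. Another Igfbp5 probe set, 1452114_s_at, fell there by 0.66, so the gene has no single direction. Neither Igfbp5 probe set was among the 6 largest changes, and both were chosen after their values were seen. Also outside the 6 largest were Hif1a 1416035_at in both genotypes, Pik3r1 1451737_at in null glands and Il1r1 in wild type glands. Of the 16 calls in null glands over all these lists, the members left out, 6 were kept whichever pool was left out, and of 12 in wild type glands 3 were kept. Many of these targets also answer to other signals.

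**Figure D4:**
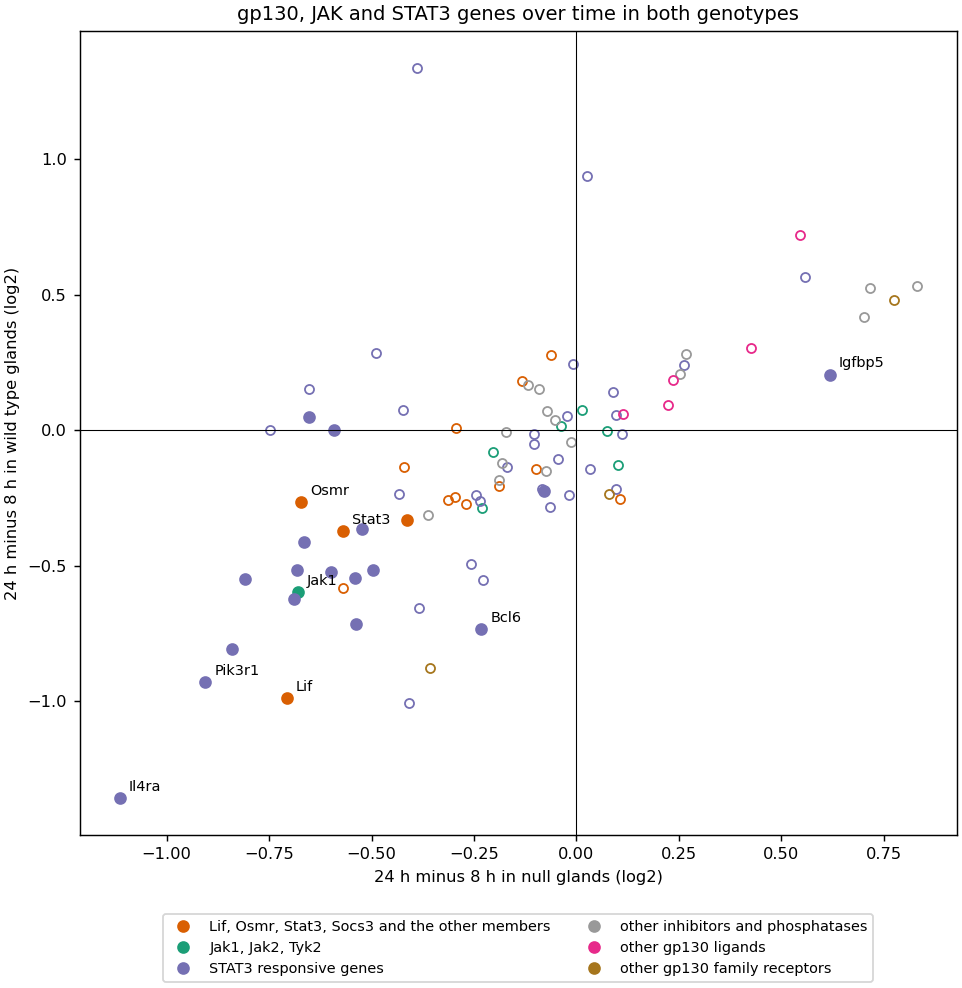
24 h minus 8 h difference (log2) in null glands on the horizontal axis and in wild type glands on the vertical axis, for every tested probe set of the members and the pathway lists; filled points were called in at least 1 genotype. Lif, Stat3, Il4ra and Pik3r1 lie in the lower left, where both differences are below 0.

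Between the genotypes 4 of the 46 STAT3 responsive probe sets (8.7%) were called lower in null glands at 24 h, beside 0.873% of all tested probe sets. They were Fgg, a fibrinogen chain (-2.18, adjusted p = 0.014), Myc, a growth-driving transcription factor (-1.10, 0.015), Lcn2, an iron-carrier binding protein (-0.95, 0.021), and Junb, a subunit of AP-1 (-0.60, 0.049). None of these 4 calls held whichever pool was left out, and with the pool number as a block those of Lcn2 and Junb were lost (adjusted p = 0.056 and 0.054). With only the compared arrays in the fit all 4 were lost, with adjusted p of 0.11 for Fgg, 0.15 for Myc, 0.078 for Lcn2 and 0.24 for Junb. At 24 h the mean level of luminal markers ran from 8.64 to 8.91 in null and from 9.06 to 9.41 in wild type glands, and that of basal markers from 7.22 to 7.49 in null and from 7.84 to 8.60 in wild type glands, with no overlap. Of the 15 luminal marker differences behind these means 9 were negative. The part of these epithelial levels in the 4 differences was not tested.

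At 8 h 1 of the 46 (2.17%) was called lower in null glands, beside 1.54% of all. This was Hp, the acute phase protein haptoglobin (-0.55, adjusted p = 0.012), and with pool 2 of the null 8 h glands left out its adjusted p was 0.060. For the change of the genotype difference between times none of the 46 was called by limma, while 8 had an unadjusted p below 0.05. The share of all tested probe sets below that unadjusted p was not counted, so the 8 cannot be weighed.

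**Figure D5:**
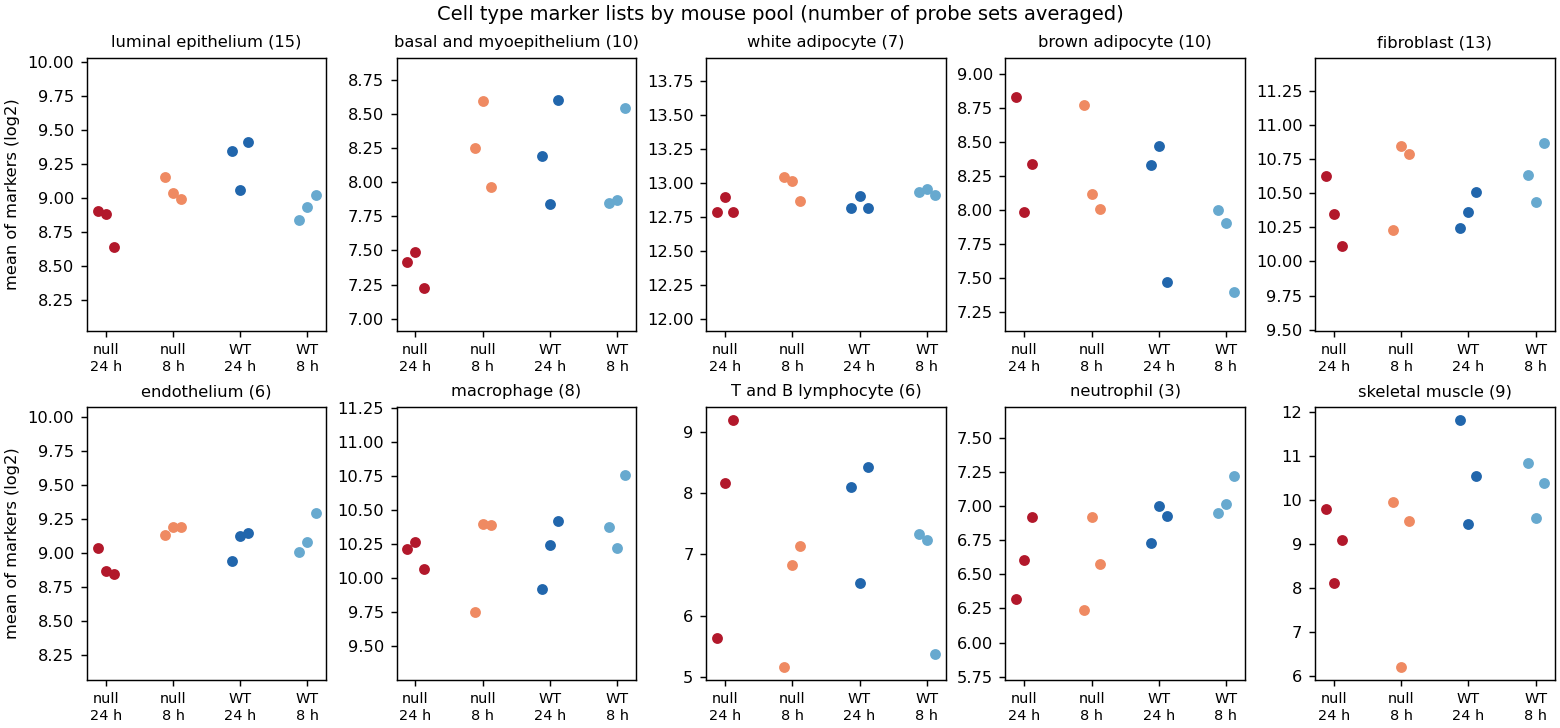
Mean deposited log2 signal of the tested probe sets of each cell type marker list in the 12 pools, with groups along the horizontal axis. The mean levels of the luminal and basal lists at 24 h were lower in null than in wild type pools. Of the 15 luminal differences 9 were negative, and the highest was 0.26. Skeletal muscle markers varied from 6.19 to 11.8.

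The genes whose level followed each member most closely were ranked over 11999 other genes by Pearson correlation across the 12 arrays, as a description that includes the group differences. For Lif they were Cln8 (0.983), the Pgr probe set 1439527_at (0.973) and Ctr9 (0.967). For Stat3 they were Lin7c (0.981), Tubb6 (0.974) and Socs2 (0.970). For Osmr they were Atp8b1 (0.967), Gucy1b1 (0.960) and Sh3d19 (0.954). The 12 points share 4 groups, so genes with the same group means correlate highly whatever else they do. Socs3 was followed most closely by Ascc3 (0.969), Sppl2a (0.958) and Tlr13 (0.953). Il6st came with Irak3 (0.971), Serpinb6a (0.970) and Mgl2 (0.965), and Lifr with Ifi207 (0.949), Acap2 (0.944) and Hspa13 (0.942). Il6ra had the weakest neighbours over the 12 arrays, Phxr4 (0.900), Zxdc (0.863) and Rhobtb2 (0.831). With the group means removed, Il6ra correlated with these 3 at 0.936, 0.923 and 0.730. Lif then correlated with Cln8 at 0.452, with Pgr at 0.621 and with Ctr9 at 0.728.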

How the data were processed

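Each of the 12 arrays measured biotin-labelled RNA of 1 pool of 3 mice. The deposited values are log2 signals of 45101 probe sets, read as log2 from their range; MAS5 is named in the submitters' processing notes with no role given, and no label names a normalization. The 64 control probe sets were left out. Symbols came from GEO's platform annotation (34945 probe sets with 1 symbol, 932 with several, 9160 with none). Probe sets above the array median on at least 3 arrays were tested in limma 3.58.1 (R 4.3.3) with lmFit on the 4 group means and eBayes with trend, 8 residual degrees of freedom, and Benjamini-Hochberg adjustment over 23709 probe sets. The labels call the 3 arrays of a group biological replicates, and their number limits the precision. The model was tested on simulated data.

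The members and lists were chosen with earlier results of these data known. All member probe sets are named. Of the lists, up to 6 called probe sets per list and comparison were named by size of the change, with some named beyond that number. These were 2 of Igfbp5, Hif1a 1416035_at in both genotypes, Pik3r1 1451737_at in null glands and Il1r1 in wild type glands. Larger falls over time in null glands, of Junb (-0.65) and Cd14 (-0.59), were not described. A gene's likeness was taken on its probe set of highest mean level.

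Same-numbered pools deviated together between the times in null glands (correlations 0.52, 0.26 and 0.38 for the 3 pairs); in no other comparison were all 3 above 0.1, so the pool number was used as a block in an alternative. Other alternatives were other filters, a floor, quantile normalization, median centring, array weights, a variance prior with no trend or a robust one, 1 probe set per gene, a fit on the compared arrays alone and leaving out each pool.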

Additional observations from a re-analysis of the deposited data

How the results depend on the processing

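Over 75 member results and 1325 refits, 1307 stayed on their side of the threshold (most had no call, since 8 of the 75 were called), 9 lost the call, 9 gained it and no called direction reversed. With array weights 4017 probe sets were called between genotypes at 8 h in place of 729 (members 3 in place of 1), 685 at 24 h in place of 262 (members 1 in place of 0), 169 for the change of the genotype difference in place of 34, and 5775 over time in null glands in place of 1044 (members 9 in place of 4, all 3 Socs3 probe sets among them). With only the compared arrays 71 were called at 24 h, 348 over time in null glands (members 2, Osmr and Stat3 1460700_at being lost) and 500 over time in wild type glands in place of 1238 (Stat3 1460700_at being lost there too). It also ended all 4 STAT3 responsive calls at 24 h between genotypes, where Junb was also lost with no filter (adjusted p = 0.062), a stricter filter (0.052) and median centring (0.057). With 1 probe set per gene the counts were 338 and 165 between genotypes at 8 h and 24 h, 10 for the change of the genotype difference, 572 over time in null and 648 in wild type glands. A stricter filter left 18 for the change of the genotype difference. Quantile normalization moved the share of lower calls over time in null glands to 69.8%, against 81.5%.

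Leaving out 1 pool gave 320 to 575 calls at 8 h (members 0 to 1), 126 to 704 at 24 h (members 0 to 0), 12 to 45 for the change of the genotype difference (members 0 to 0), 232 to 1008 over time in null glands (members 3 to 5) and 239 to 866 in wild type glands (members 1 to 3). With the replicate block the counts were 633, 260 and 35 for the genotype comparisons and their change, 1346 over time in null and 1531 in wild type glands, and members stayed at 1, 0, 0, 4 and 3; the block changed no member call, and of the pathway calls it ended those of Lcn2, Junb and the second Il4ra probe set. The adjusted p of Lif at 8 h ran from 0.028 to 0.052 with a pool left out. The causes were not tested. Signals near the array median or below it, as for Il6 and for Lif at 24 h, limit what can be read.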
